A study of Homo sapiens with 12 samples.

Results

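Under the BET bromodomain inhibitor JQ1, RCC4 cells without functional VHL and RCC4 cells with VHL put back were compared across every gene with enough counts. RCC4 is an established clear cell renal cell carcinoma line that lost VHL. The libraries compared were 3 of the VHL-negative cells and 3 of the VHL-positive cells, all treated with 5 µM JQ1, which makes 6 of the 12 libraries of the study. They were chosen by their genotype and treatment labels alone. The other 6 libraries, 3 of each genotype treated with the solvent DMSO, served here only to show whether a difference was also present without the drug. RNA depleted of ribosomal RNA was sequenced, and the measurement was the number of reads assigned to each gene. Both cell lines were grown in high glucose DMEM with serum and geneticin, so the selection drug was present in every group. The length of the JQ1 treatment, the VHL construct, whether each line was a single clone, and whether the replicates were separate cultures were not given in the sources used here. The p-values therefore measure the spread between these libraries, which may be technical.

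VHL is the substrate receptor of a ubiquitin ligase that marks the alpha subunits of the hypoxia-inducible factors (HIF) for degradation once prolyl hydroxylases have used oxygen to modify them. Without VHL the alpha subunits persist in normal oxygen, pair with ARNT and bind DNA at a short core sequence near genes for glucose uptake, glycolysis, acid export, blood vessel growth and mitochondrial remodelling. Clear cell renal carcinoma typically lacks VHL and stores lipid. BET proteins read acetylated histones and help RNA polymerase II leave promoters, and JQ1 displaces them from chromatin. The labels call JQ1 a MYC inhibitor, and transcription of MYC is known to depend on BET proteins in many cells.

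The comparison rested on 15452949 to 30458147 counts per VHL-negative JQ1 library and 18468751 to 29669306 per VHL-positive JQ1 library. Of the annotated genes 20714 had enough counts to be tested, and they held 99.87% of the counts. Genes of the mitochondrial genome took 15.6% to 20.3% of the counts in the JQ1 libraries and 9.9% to 25.3% over all 12. Renal and RCC line markers summed to 2550 to 3290 CPM (counts scaled to 1000000 per library) in the JQ1 libraries, where LHX1 was under 1 CPM throughout and CA9 under 1 CPM in the VHL-positive cells. The highest of these markers was VIM, at up to 1690 CPM in the VHL-negative and 942 CPM in the VHL-positive JQ1 libraries. Of 10 endothelial markers 7 stayed under 1 CPM in each library, among them PECAM1 and VWF, and the summed level was 29.4 to 30.7 CPM in the VHL-negative and 35 to 40.8 CPM in the VHL-positive JQ1 libraries. EGFL7 was the highest endothelial member, at up to 22.5 and 35.9 CPM in these groups. Leukocyte markers summed to at most 2.29 CPM in the JQ1 libraries, with PTPRC under 1 CPM. Fibroblast and pericyte markers summed to 8.44 to 10.6 CPM in the VHL-negative and 20.9 to 29.6 CPM in the VHL-positive JQ1 libraries. PDGFRA, DCN and LUM were under 1 CPM, while the highest members were ACTA2 (up to 4.95 CPM, VHL-negative) and RGS5 (up to 24.2 CPM, VHL-positive). Within the VHL-negative JQ1 group the library of replicate 3 lay between the other 2 libraries in 79.4% of 9597 genes with a mean of at least 10 CPM, against 55.5% for replicate 3 of the VHL-positive JQ1 group. The nuclear RNAs differed within the same group: NEAT1 had 4771, 16880 and 11412 CPM in the VHL-negative and 4720.5, 6393 and 5927 CPM in the VHL-positive JQ1 libraries, and MALAT1 had 10818, 20083 and 15509 against 8459.7, 9135 and 8029 CPM.

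VHL and HIF1A were lower in the VHL-negative cells and the HIF-induced hydroxylase EGLN3 was higher, with no overlap between the libraries. VHL (ENSG00000134086, GRCh38 chr3:10141008-10152220) had 35.2, 32.4 and 30.5 CPM in the VHL-negative and 219.7, 196 and 221 CPM in the VHL-positive JQ1 libraries. Every VHL-positive library thus exceeded every VHL-negative one, and the fitted level was 6.49-fold lower without VHL (log2 difference -2.70, SE 0.13, adjusted p = 1.49e-10). Here and below a log2 difference is VHL-negative minus VHL-positive, fitted with edgeR's quasi-likelihood test over all 12 libraries, and p-values were adjusted over all 20714 tested genes by the Benjamini-Hochberg method. Counts per gene do not separate reads of the gene from reads of an introduced copy.

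HIF1A (chr14:61695513-61748259), which encodes the HIF-1 alpha subunit, had 213, 235 and 218 CPM in VHL-negative and 944, 1090.2 and 906 CPM in VHL-positive cells under JQ1. It was 4.42-fold lower without VHL (log2 -2.14, SE 0.13, adjusted p = 3.71e-09). EPAS1 (chr2:46293667-46386703), which encodes the HIF-2 alpha subunit, had 226, 211 and 219 against 363, 467 and 409.9 CPM and was 1.89-fold lower (adjusted p = 9.42e-05). Transcripts of both alpha subunits were thus less abundant in the cells that lack VHL. EGLN3 (chr14:33924231-34462774), a prolyl hydroxylase that is itself a HIF target, went the other way, with 43.7, 37.8 and 41.7 against 2.62, 2.43 and 2.18 CPM, 16.9-fold higher (log2 4.08, SE 0.14, adjusted p = 4.69e-12). Of the 15 genes of HIF subunits and oxygen sensing 14 were tested, 2 were higher and 5 lower, against 19.7% higher and 21.2% lower among all tested genes. ARNT2, a partner subunit, was the other higher member (0.60 log2, adjusted p = 0.00111), while the partner ARNT was lower (-0.49 log2, adjusted p = 0.0234). ELOB, an adaptor of the VHL ligase, was 1.75-fold lower (adjusted p = 0.000823).

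**Figure D1:**
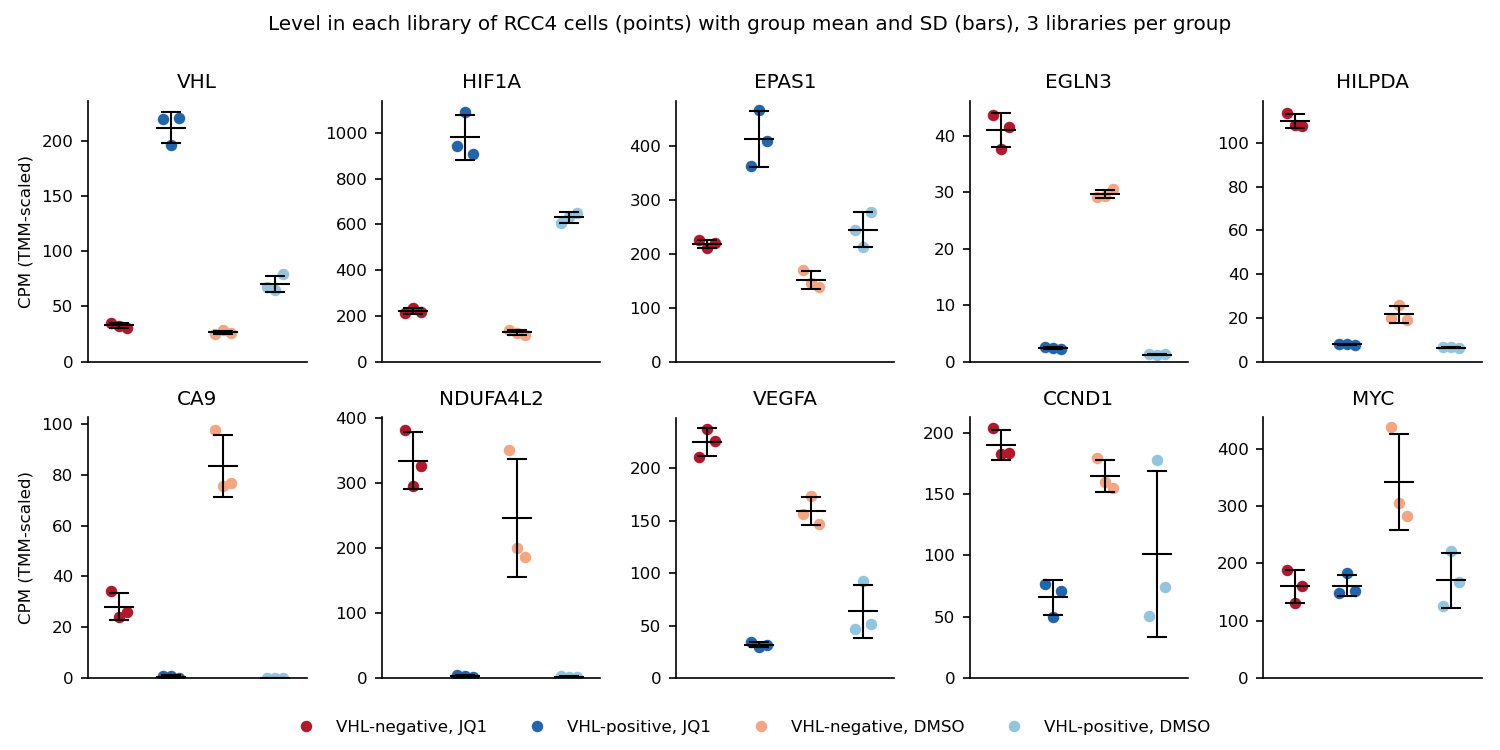
Level of 10 genes in each of the 12 libraries, in TMM-scaled CPM on a linear axis from 0; points are libraries, horizontal bars the group means, and error bars the SD over 3 libraries. VHL, HIF1A and EPAS1 lie lower in the VHL-negative JQ1 libraries than in the VHL-positive ones, EGLN3, HILPDA, CA9, NDUFA4L2, VEGFA and CCND1 lie higher, and MYC overlaps.

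The promoters of 5 HIF targets that were higher without VHL under JQ1 are shown because they differ in how many copies of the HIF core sequence they hold close to the start site. Each is 250 bases before to 50 bases after the RefSeq start on GRCh38.p14, 5′ to 3′ on the gene's own strand. Capitals mark ACGTG or GCGTG on either strand (CACGT and CACGC are the same letters read on the other strand, and CACGTG holds ACGTG on both). The windows are CA9 (chr9:35673678-35673977, plus strand), ANGPTL4 (chr19:8363905-8364204, plus strand), BNIP3 (chr10:131981874-131982173, minus strand), PGK1 (chrX:78103998-78104297, plus strand) and SLC16A3 (chr17:82228185-82228484, plus strand).
CA9: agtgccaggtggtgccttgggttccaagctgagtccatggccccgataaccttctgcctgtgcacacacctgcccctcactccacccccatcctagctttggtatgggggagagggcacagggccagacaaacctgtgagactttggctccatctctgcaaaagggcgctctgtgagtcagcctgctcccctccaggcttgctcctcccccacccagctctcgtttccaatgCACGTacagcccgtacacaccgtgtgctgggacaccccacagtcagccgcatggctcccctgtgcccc
ANGPTL4: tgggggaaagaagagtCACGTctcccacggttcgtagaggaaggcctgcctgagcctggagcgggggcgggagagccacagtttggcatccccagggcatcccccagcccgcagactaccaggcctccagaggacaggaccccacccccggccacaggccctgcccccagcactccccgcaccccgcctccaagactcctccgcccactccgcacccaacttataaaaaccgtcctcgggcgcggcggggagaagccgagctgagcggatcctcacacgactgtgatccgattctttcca
BNIP3: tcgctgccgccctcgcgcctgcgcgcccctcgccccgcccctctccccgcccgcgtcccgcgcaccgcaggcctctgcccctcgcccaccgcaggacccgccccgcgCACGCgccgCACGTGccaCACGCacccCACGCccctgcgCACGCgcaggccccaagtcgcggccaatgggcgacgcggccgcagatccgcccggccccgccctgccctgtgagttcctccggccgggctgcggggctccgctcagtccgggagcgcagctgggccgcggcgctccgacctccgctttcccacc
PGK1: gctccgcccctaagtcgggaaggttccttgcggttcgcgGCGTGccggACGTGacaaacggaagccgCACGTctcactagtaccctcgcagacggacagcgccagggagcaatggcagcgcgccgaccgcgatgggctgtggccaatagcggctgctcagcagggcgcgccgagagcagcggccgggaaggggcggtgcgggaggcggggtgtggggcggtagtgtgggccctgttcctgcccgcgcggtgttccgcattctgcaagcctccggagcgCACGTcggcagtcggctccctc
SLC16A3: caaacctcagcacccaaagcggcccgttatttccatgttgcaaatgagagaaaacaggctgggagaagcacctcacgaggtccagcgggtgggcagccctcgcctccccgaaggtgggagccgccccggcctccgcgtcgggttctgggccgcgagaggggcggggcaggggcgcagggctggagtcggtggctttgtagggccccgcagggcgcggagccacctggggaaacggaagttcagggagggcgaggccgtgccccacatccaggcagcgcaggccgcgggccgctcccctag
BNIP3 held 6 matches and PGK1 held 4, CA9 and ANGPTL4 held 1 each, and SLC16A3 held 0, which says only that these letters are not in this window.

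Among all 27305 RefSeq promoter windows a share of 48.4% held either motif and 21.6% held ACGTG. For the 12296 windows of tested genes the shares were 61.2% and 25.9%. Of the HIF targets that were higher without VHL under JQ1, 40 of 49 had a window, and 32 of these (80%) held either motif and 24 (60%) held ACGTG. Of the HIF targets that were not higher, 19 of 26 had a window, of which 11 (57.9%) held either motif and 3 (15.8%) held ACGTG. For all genes at least 2-fold higher without VHL the ACGTG share was 24.5%, and for those at least 2-fold lower it was 22.3%. A match is a description of the letters and not a measured binding site.

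Across all genes 4082 were higher and 4397 lower in VHL-negative than in VHL-positive cells under JQ1, so 40.9% of tested genes passed at an adjusted p of 0.05. Of these, 2385 were at least 2-fold higher and 1752 at least 2-fold lower, while 58 were at least 32-fold higher and 129 at least 32-fold lower. The higher genes made up 48.1% of the calls, and 62.1% when libraries were scaled by total counts alone, which moved the median log2 difference of all genes from 0.03 to 0.19. The number called without 1 library ran from 6395 (without replicate 3 of the VHL-negative JQ1 group) to 9644 (without replicate 1 of the same group). Without replicate 3 of both JQ1 groups 4814 genes were called. The counts of called list members below stand beside 19.7% higher and 21.2% lower among all tested genes.

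**Figure D2:**
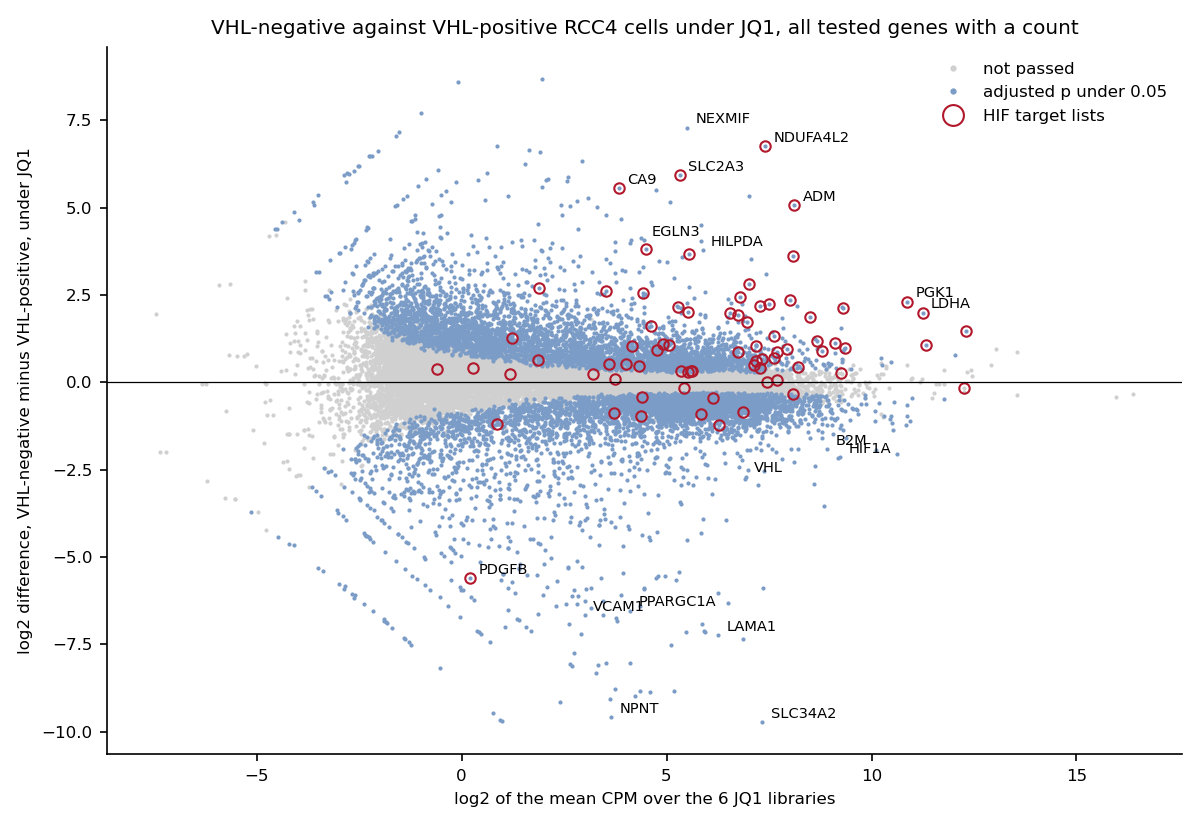
The log2 difference between VHL-negative and VHL-positive cells under JQ1 (vertical axis) against the log2 of the mean CPM over the 6 JQ1 libraries (horizontal axis) for 20712 tested genes with a count in those libraries. Blue points passed at an adjusted p of 0.05, grey points did not, and red circles are members of the HIF target lists, most of which lie above 0.

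HIF targets were on balance higher in the VHL-negative cells under JQ1. The 6 HIF target lists hold 81 genes, of which 75 were tested; 49 were higher and 9 lower, beside 19.7% and 21.2% of all tested genes. Their median log2 difference was 0.92, against 0.03 for all tested genes. The libraries of the genotypes did not overlap in the higher direction for 52 of the 75 and in the lower direction for 10, where 25.7% and 27.2% of all tested genes were separated in this way. At least 2-fold higher were 35 and at least 2-fold lower 3, beside 11.5% and 8.46% of all tested genes. Under total-count scaling 52 were higher and 7 lower, and without replicate 3 of both JQ1 groups 40 and 7.

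Glucose uptake and glycolysis were part of this: 16 of 21 genes were higher and 1 lower, with a median of 1.48. SLC2A3 (chr12:7919230-7936275), the high-affinity glucose transporter GLUT3, had 83.5, 73.3 and 80.6 CPM in VHL-negative and 1.24, 1.34 and 1.26 CPM in VHL-positive cells, 61.7-fold higher (SE 0.20 log2, adjusted p = 4.25e-12). SLC2A1, the ubiquitous transporter GLUT1, had 1187, 881 and 1008 against 245, 212 and 242 CPM (4.4-fold). Both transporters were separated between the genotypes in every library.

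PFKFB4, which makes the allosteric activator of phosphofructokinase, had 89.2, 85.8 and 87 against 6.59, 7.05 and 6.71 CPM (12.9-fold, adjusted p = 9.61e-12). Its relative PFKFB3 had 607, 538 and 571 against 153, 162 and 152 CPM (3.68-fold). PGK1, the first ATP-producing enzyme of glycolysis and the gene with 4 motif matches above, had 3787, 2465 and 3041 against 699, 557 and 617 CPM (4.96-fold, adjusted p = 4.79e-08). Lactate dehydrogenase LDHA, enolase ENO2, hexokinase HK2 and the pyruvate dehydrogenase kinase PDK1, which turns pyruvate away from mitochondria, were 4-fold, 4.57-fold, 3.31-fold and 3.97-fold higher. ALDOA was 4.43-fold higher, although 53.5% of its exon bases are shared with other genes of the annotation, and GAPDH was 2.78-fold higher, a gene with many near-identical copies. The exception was the muscle-type phosphofructokinase PFKM, which had 46.7, 32.8 and 39.6 against 79.5, 71.9 and 70.4 CPM and was 1.86-fold lower (adjusted p = 0.000108).

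Of 7 genes of acid export and carbonic anhydrases 2 were higher and 1 lower, beside 19.7% and 21.2% of all tested genes. CA9 (chr9:35673856-35681159), a cell-surface carbonic anhydrase and a marker of clear cell renal carcinoma, had 34.2, 24.1 and 26.1 CPM without VHL and 0.946, 0.648 and 0 CPM with it. It was 47.5-fold higher in the fit (log2 5.57, SE 0.37, adjusted p = 7.08e-09), and 6.22 on the log2 scale without replicate 1 of the VHL-positive JQ1 group and 6.45 with limma-voom. Other genes share 38.5% of its exon bases. SLC16A3, which exports lactate with a proton, had 490.5, 479 and 534 against 43.9, 34.6 and 42.9 CPM (12.4-fold, adjusted p = 4.82e-11), while the bicarbonate transporter SLC4A4 was 2.33-fold lower (adjusted p = 1.22e-05).

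The secreted and vascular factors moved in both directions. Of 17 listed genes 12 were tested, with 7 higher and 3 lower. Adrenomedullin, ADM, a vasodilator peptide, had 639, 460.0 and 524 CPM in VHL-negative and 16.3, 16 and 15.8 CPM in VHL-positive cells (33.7-fold higher, adjusted p = 3.13e-12). VEGFA (chr6:43770184-43786487), the principal growth factor of blood vessels, had 211, 237 and 226 against 34.3, 29.4 and 31.2 CPM (7.09-fold, SE 0.21 log2, adjusted p = 3.02e-08). ANGPTL4, an inhibitor of lipoprotein lipase, was 14.1-fold higher, and the calcium-regulating hormones STC1 and STC2 were 6.09-fold and 2.06-fold higher. EDN1, the vasoconstrictor endothelin, was low in all 6 libraries, with 4.48, 3.1 and 2.37 against 1.53, 1.54 and 0.976 CPM (2.42-fold, adjusted p = 0.00493).

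The lower members were PDGFB, a growth factor of pericytes, the ferroxidase CP and the insulin-like growth factor carrier IGFBP3. PDGFB was nearly absent without VHL: the VHL-negative JQ1 libraries held 0.0342, 0.0596 and 0.0388 CPM and the VHL-positive ones 2.04, 2.84 and 1.95 CPM, a ratio of 55 with a 95% counting interval of 18.5 to 270. CP had 17.5, 11.7 and 12.9 against 30.7, 25.9 and 25.7 CPM (1.95-fold lower, adjusted p = 0.000181), and IGFBP3 was 1.8-fold lower (adjusted p = 0.000548).

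Of the genes of mitochondrial remodelling and mitophagy 9 of 10 were tested, with 6 higher and 1 lower. NDUFA4L2 (chr12:57234903-57240715), a mitochondrial protein that lowers oxygen use, had 382, 296 and 326 CPM in VHL-negative and 4.29, 3.32 and 1.32 CPM in VHL-positive cells. The difference of 109-fold (log2 6.76, SE 0.36, adjusted p = 5.19e-10) was the largest among all HIF target members. BNIP3 and BNIP3L, receptors that direct mitochondria to autophagy, were 5.15-fold and 2.5-fold higher, BNIP3 with 539.5, 342 and 414 against 87.4, 76.2 and 87.9 CPM. MIR210HG, the host transcript of a hypoxia-induced microRNA, was 5.85-fold higher, and FAM162A, a mitochondrial protein induced by hypoxia, 4.06-fold. HIGD1A, which associates with respiratory complexes, was 1.83-fold lower (adjusted p = 0.00305).

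Collagen hydroxylases and cross-linking enzymes had 6 higher and 3 lower members of 11. PLOD2, a lysyl hydroxylase, was 2.19-fold higher with 886, 667 and 733 against 359.8, 329 and 357 CPM. The cross-linking oxidases LOX and LOXL2 were 2.07-fold and 2-fold higher, P4HA1, a collagen prolyl hydroxylase, 1.59-fold (adjusted p = 0.00618), and its relative P4HA3 was 2.28-fold lower (adjusted p = 0.0117). The call for P4HA1 did not remain without replicate 3 of both JQ1 groups (adjusted p = 0.0565), where 3 of the 11 were higher and 1 lower. The lower count was also 1 with total-count scaling, with protein-coding genes alone, and without replicate 3 of either JQ1 group. The transcription and chromatin regulators had 12 higher and 0 lower members of 15. The repressor BHLHE40 had 331, 272 and 295 against 51.9, 79.8 and 59.1 CPM (4.71-fold, adjusted p = 9.76e-07), the mTORC1 inhibitor DDIT4 was 5.43-fold, ANKRD37 6.55-fold, ZNF395 3.79-fold, the histone demethylase KDM5C 2.13-fold and JMJD6 3.04-fold higher.

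Growth genes linked to HIF-2 split: of 15 listed genes 14 were tested, 2 higher and 7 lower, with a median log2 difference of -0.37. Cyclin D1, CCND1, which drives entry into the cell cycle, had 204, 183 and 183 CPM without VHL and 76.5, 49.7 and 70.9 CPM with it (2.89-fold higher, adjusted p = 0.00119). Cyclin D2, CCND2, was reversed, with 13.8, 11.1 and 11 against 52.5, 59.7 and 53.8 CPM (4.62-fold lower, adjusted p = 1.92e-08). The adaptor of insulin receptors IRS2 was 8.52-fold higher, at 257, 356 and 317 against 30.0, 42.4 and 36.8 CPM, and the EGFR ligands AREG and BTC were 6.42-fold and 2.92-fold lower. The lower count was 4 when replicate 3 of the VHL-negative or replicate 1 or replicate 3 of the VHL-positive JQ1 group was left out, 3 with total-count scaling, and 10 with DESeq2 or with the JQ1 libraries alone.

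HILPDA (ENSG00000135245, chr7:128455849-128458418), an inhibitor of the lipase ATGL that lets lipid droplets grow, was the 1 lipid droplet protein gene of 10 tested that was higher (2 of 10 were higher with total-count scaling or with protein-coding genes alone). It had 114, 108 and 108 CPM in the VHL-negative and 8.01, 8.18 and 7.58 CPM in the VHL-positive JQ1 libraries, 13.9-fold higher (log2 3.79, SE 0.14, adjusted p = 1.41e-11). Every VHL-negative library exceeded every VHL-positive one. The droplet coat gene PLIN2 had 117, 65.9 and 88 against 86.2, 98 and 86.1 CPM, and the genotypes overlapped (log2 0.01, SE 0.18, adjusted p = 0.983). Of the lipid droplet list 8 of 18 genes had too few counts to be tested, and 4 of the 10 tested were lower. Among all tested genes 19.7% were higher and 21.2% lower. LDAF1, which marks sites of droplet formation with seipin, was 2.46-fold lower, HSD17B11 1.84-fold, FAF2 1.81-fold and AUP1 1.56-fold. The AUP1 call (adjusted p = 0.0142) did not remain without replicate 2 (0.0653) or replicate 3 (0.0669) of the VHL-negative or replicate 2 of the VHL-positive JQ1 group (0.0505).

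In lipolysis, triglyceride synthesis and fatty acid uptake the shares of higher and lower genes were near the 19.7% and 21.2% of all tested genes. In lipolysis 2 of 10 were higher and 2 lower: PNPLA3 and hormone-sensitive lipase LIPE were 2.55-fold and 2.11-fold higher, and lysosomal acid lipase LIPA and ABHD6 were 2.14-fold and 1.86-fold lower. In triglyceride synthesis 12 of 16 genes were tested, with 2 higher and 3 lower. The phosphatidate phosphatases differed among themselves, with LPIN3 1.69-fold higher and LPIN1 and LPIN2 1.96-fold and 2.15-fold lower. LPIN1 had 74.7, 62.8 and 64 CPM without VHL and 129, 130.5 and 135 CPM with it. In fatty acid synthesis and desaturation 1 of 15 was higher, the elongase ELOVL2 at 3.42, 3.1 and 3.26 against 0.327, 0.122 and 0.344 CPM (12.4-fold), and 5 were lower, among them the desaturase FADS2 (3.17-fold). In uptake and activation 3 of 14 were higher and 4 lower. The carrier FABP6 was 4.88-fold higher. The acyl-CoA synthetase SLC27A2 had 0 counts in the 3 VHL-negative JQ1 libraries and 0.873, 0.689 and 0.689 CPM in the VHL-positive ones, which makes it at least 18.2-fold lower against a floor of 3 counts over the group.

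Fatty acid oxidation, cholesterol synthesis and oxidative phosphorylation were on balance lower in the VHL-negative cells under JQ1. Of 25 tested genes of fatty acid oxidation 16 were lower and 3 higher (median log2 -0.61). PPARGC1A, the coactivator of mitochondrial gene expression, was nearly lost, with 0.273, 0.596 and 0.311 CPM in VHL-negative and 32.1, 40.4 and 30.6 CPM in VHL-positive cells (92.7-fold lower, SE 0.28 log2, adjusted p = 5.67e-11). CPT1A, which commits fatty acids to mitochondria, had 2.26, 1.49 and 1.75 against 5.68, 6.8 and 5.51 CPM (3.23-fold lower). The carnitine transporter SLC22A5 and the peroxisomal enzyme HSD17B4 were 2.89-fold and 2.15-fold lower.

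In 6 lists no member was called in 1 of the directions with edgeR (the chromatin regulators, cholesterol, oxidative phosphorylation, replication, MHC class I and ribosomal proteins), and for these the count was also 0 at an unadjusted p under 0.05, with DESeq2 and with limma-voom. Of 24 tested genes of cholesterol synthesis and uptake 19 were lower and 0 higher, with a median of -1.12, and 15 of them were at least 2-fold lower. FDFT1, the first enzyme committed to sterols, had 72.6, 40.0 and 51.7 against 220.2, 201 and 207 CPM (3.81-fold lower, adjusted p = 4.3e-07). HMGCS1 and MSMO1, enzymes of the same route, were 3.02-fold and 2.97-fold lower. Total-count scaling left 19 lower, and leaving out replicate 3 of both JQ1 groups left 18.

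Of 44 nuclear genes of oxidative phosphorylation 30 were lower and 0 higher (median -0.63). UQCRB and UQCRC2 of complex III were 2.82-fold and 2.05-fold lower, SDHC of complex II 2.06-fold and NDUFB5 of complex I 2.42-fold. UQCRB had 11, 6.85 and 8.27 CPM without VHL and 25.8, 23.7 and 24.5 CPM with it, so the libraries did not overlap. Of 34 genes of lysosomes and autophagy 18 were lower and 4 higher (median -0.41), with the protease CTSD 3.04-fold, the autophagy receptor SQSTM1 2.46-fold and CTSB 2.33-fold lower.

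The difference also moved with the level of a gene. Over protein-coding genes split into 5 equal groups of 2717 by mean CPM over the 12 libraries, the median log2 difference under JQ1 ran from 0.09 in the lowest through -0.03, -0.10 and -0.15 to -0.21 in the highest. The fatty acid oxidation, cholesterol, oxidative phosphorylation and lysosome lists all had medians below that of the highest group. Of their tested members 4 of 25, 9 of 24, 17 of 44 and 18 of 34 belonged to that group. Under DMSO the same medians were -0.25, 0.06, 0.04, 0.04 and -0.002. Over all 12 libraries NEAT1 and MALAT1 were highest in replicate 2 of the VHL-negative JQ1 group, the library with the fewest counts. The part of either in the lower lists was not tested.

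**Figure D3:**
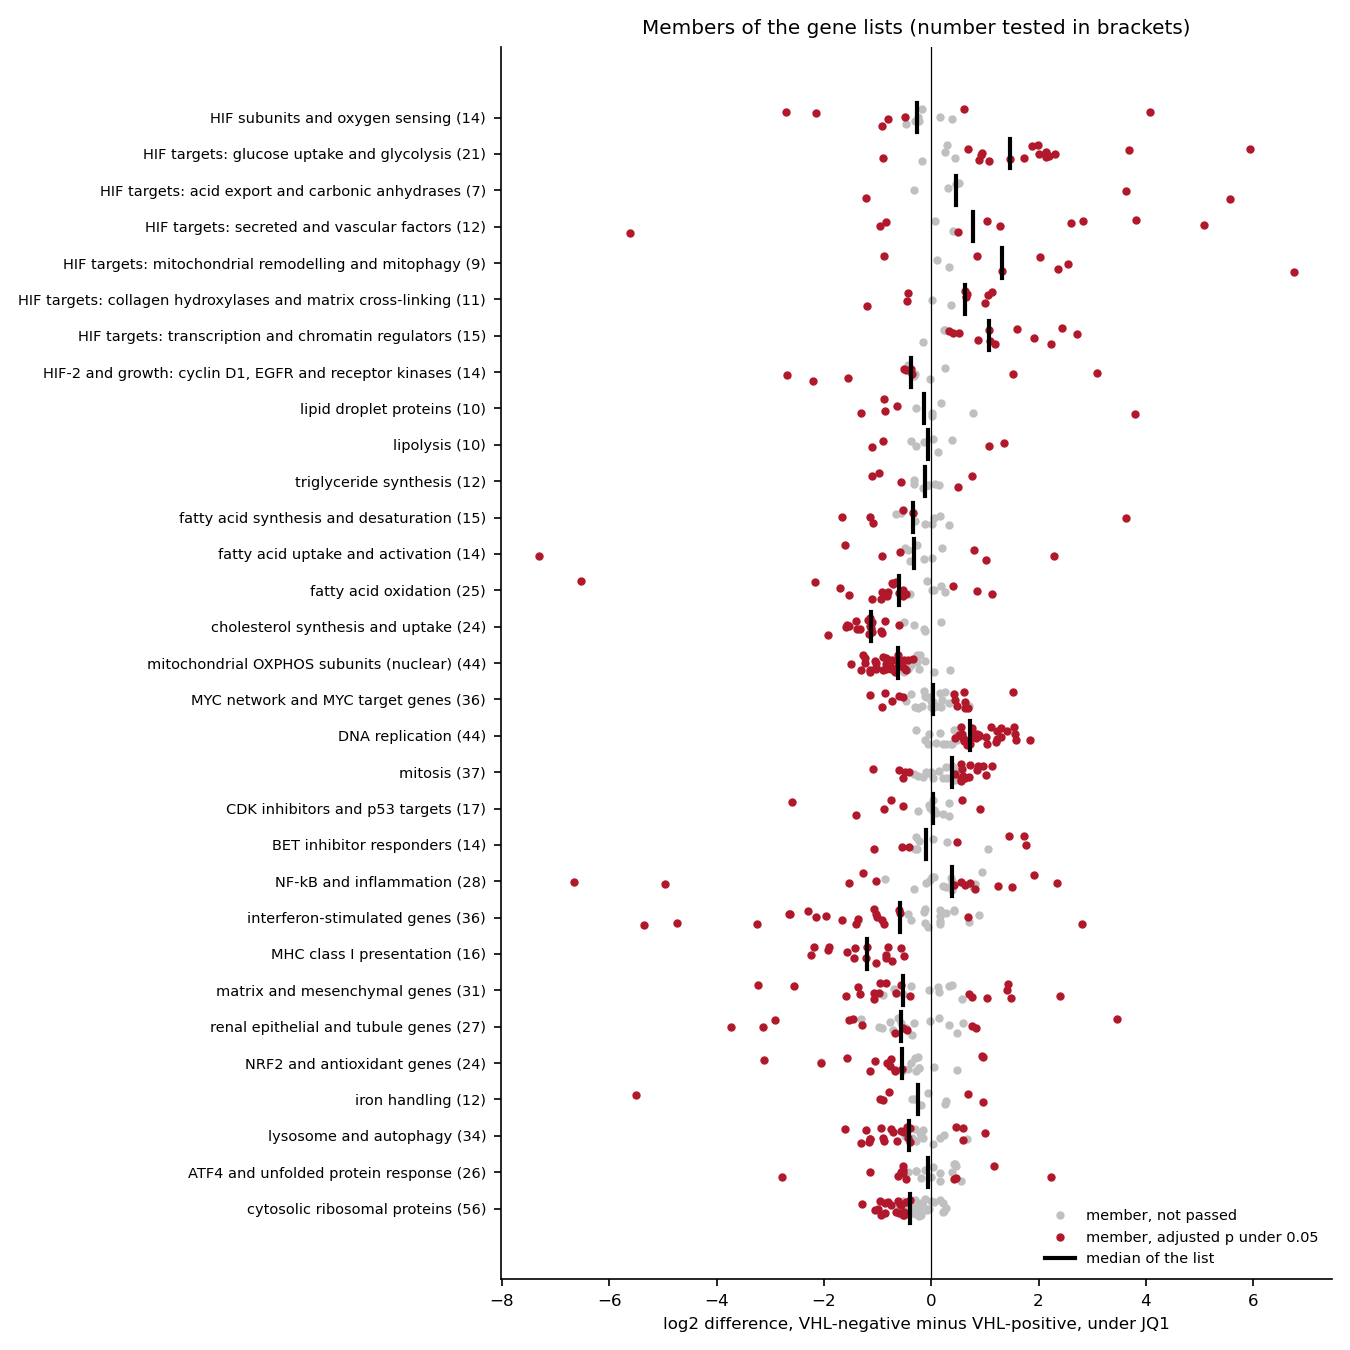
The log2 difference between VHL-negative and VHL-positive cells under JQ1 for each tested member of 31 gene lists, one row per list with the number tested in brackets. Red points passed at an adjusted p of 0.05, grey points did not, and the black bar is the median of the list; the glycolysis, mitochondrial remodelling, chromatin regulator and DNA replication lists lie to the right of 0, the cholesterol, oxidative phosphorylation and MHC class I lists to the left.

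Replication genes were higher in VHL-negative cells under JQ1. Of 44 genes 31 were higher and 0 lower, with a median log2 difference of 0.72, and 13 were at least 2-fold higher. RRM2, a subunit of ribonucleotide reductase, had 420.1, 299 and 344 CPM in VHL-negative and 116, 77.7 and 101 CPM in VHL-positive cells (3.61-fold, adjusted p = 1.04e-05). The polymerase subunits POLA1 and POLE2 were 2.94-fold and 2.9-fold higher and UHRF1, which maintains DNA methylation at replication, 2.67-fold. Without replicate 3 of both JQ1 groups 21 of the 44 were higher.

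Mitosis genes were less uniform, with 14 of 37 higher and 5 lower (median 0.38). AURKB, the kinase of the chromosomal passenger complex, had 99.7, 73.3 and 83.6 against 41, 37.5 and 38.4 CPM (2.2-fold), the motor KIF11 and the condensin subunit NCAPG were 1.82-fold and 1.82-fold higher, and the kinetochore gene NDC80 was 2.11-fold lower. The higher count was 7 without replicate 1 of the VHL-negative group and 6 and 8 without replicate 2 and replicate 3 of the VHL-positive group, all under JQ1. The lower count was 1 without replicate 2 or replicate 3 of the VHL-negative group or replicate 1 or replicate 3 of the VHL-positive group, and 3 without replicate 2 of the latter.

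Of 17 tested CDK inhibitor and p53 target genes 2 were higher and 5 lower, beside 19.7% and 21.2% of all tested genes. Called in either direction were 41.2% of the list and 40.9% of all tested genes. The CDK inhibitor CDKN1C had 1.78, 0.953 and 1.86 CPM without VHL and 9.72, 9.32 and 9.53 CPM with it (6.03-fold lower, adjusted p = 1.37e-06). CDKN1A, which encodes p21, had 192, 149 and 158 against 276, 289 and 274 CPM (1.68-fold lower, adjusted p = 0.00034). The antiproliferative genes BTG2 and ZMAT3, both p53 targets, were 2.63-fold and 1.84-fold lower.

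MYC itself did not pass under JQ1, with 189, 131 and 160.2 CPM in VHL-negative and 148, 183 and 153 CPM in VHL-positive cells (log2 -0.01, SE 0.21, adjusted p = 0.974), and the libraries overlapped. Of 36 tested genes of the MYC network and MYC targets 8 were higher and 6 lower (median 0.03, as for all genes, and shares near the 19.7% and 21.2% of all tested genes). MGA, a repressor that competes with MYC for MAX, was 2.2-fold lower at 160.1, 138 and 141 against 328, 317 and 317 CPM, and the antagonist MXD1 was 1.65-fold lower. EIF4A1 and the nucleolar methyltransferase FBL were 2.89-fold and 1.54-fold higher. The higher count fell to 4 or 5 when any of 5 JQ1 libraries was left out (5 without replicate 2 of either genotype, 4 without replicate 3 of either or replicate 1 of the VHL-positive group), and without replicate 1 of the VHL-negative JQ1 group 10 were lower.

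Antigen presentation by MHC class I was lower in VHL-negative cells in every gene tested: 16 of 16 were lower under JQ1, with a median log2 difference of -1.20 and 10 at least 2-fold lower. B2M, the light chain of class I molecules, had 249.8, 155 and 204 CPM in VHL-negative and 833, 742 and 722 CPM in VHL-positive cells (3.77-fold lower, SE 0.17 log2, adjusted p = 2.54e-07). HLA-B had 155, 93.9 and 125 against 496, 474 and 436 CPM (3.76-fold lower), with the reservation that HLA genes are similar to each other. The immunoproteasome subunits PSMB9 and PSMB8 were 4.73-fold and 4.55-fold lower. With total-count scaling 13 of 16 were lower, and without replicate 3 of both JQ1 groups 14.

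Interferon-stimulated genes followed in part: of 36 tested 18 were lower and 2 higher (median -0.59). The antiviral OAS1 had 0.444, 0.238 and 0.194 against 2.8, 2.92 and 3.04 CPM (9.47-fold lower), and IFIT1 was 4.9-fold lower. GBP2, an interferon-induced GTPase, was 40.8-fold lower in the fit (log2 -5.35), and -6.68 on the log2 scale without replicate 1 of the VHL-negative JQ1 group. HERC5, the ligase that attaches ISG15, was an exception, 7-fold higher at 13.8, 9.71 and 11.4 against 1.49, 1.74 and 1.78 CPM (adjusted p = 1.57e-08).

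Of 28 tested genes of NF-kB and inflammation 9 were higher and 5 lower (median 0.38), beside 19.7% and 21.2% of all tested genes. The adhesion molecule VCAM1 had 0.137, 0.119 and 0.194 CPM without VHL and 16.7, 16.5 and 14.6 CPM with it (101-fold lower, adjusted p = 1.27e-08). CSF1, a macrophage growth factor, and TNFAIP2 were 2.9-fold and 2.04-fold lower, while the cytokine LIF was 1.75-fold higher, at 126, 126 and 123 against 70.5, 73.8 and 69.6 CPM. The higher count was 5 without replicate 1 or without replicate 2 of the VHL-positive JQ1 group.

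Matrix and renal epithelial genes split. Of 31 tested matrix and mesenchymal genes 13 were lower and 7 higher (median -0.52), beside 21.2% lower and 19.7% higher among all tested genes. Fibronectin, FN1, had 959, 721 and 788 CPM in VHL-negative and 2207, 1991 and 2170.2 CPM in VHL-positive cells (2.58-fold lower), the membrane protease MMP14 was 3.01-fold and fibrillin FBN1 9.31-fold lower, and the collagen COL5A1 was 5.27-fold higher. The higher count was 4 without replicate 1 or without replicate 3 of the VHL-positive JQ1 group. Of 27 tested renal epithelial and tubule genes 9 were lower and 3 higher (median -0.56), beside the same shares of all tested genes. The kidney cadherin CDH16 had 3.25, 3.69 and 2.99 against 48.5, 39.8 and 43.2 CPM (13.3-fold lower), ALDH1A1 and CDH6 were 7.49-fold and 2.88-fold lower, and the brush border peptidase MME was 11-fold higher at 61.9, 43.2 and 50.1 against 6.19, 4.17 and 3.56 CPM.

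The antioxidant genes of NRF2 were lower in 11 of 24 and higher in 2 (median -0.54). TXNRD1, thioredoxin reductase, had 746, 484 and 597 CPM in VHL-negative and 2872, 2228 and 2470.5 CPM in VHL-positive cells (4.14-fold lower, adjusted p = 1.56e-06). The efflux pumps ABCC2 and ABCC3 were 8.62-fold and 1.68-fold lower, and NFE2L2, which encodes NRF2, was 2.06-fold lower. HMOX1, which degrades haem, was among the higher members (1.94-fold).

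In iron handling 2 of 12 were higher and 4 lower, beside 19.7% and 21.2% of all tested genes. The iron exporter SLC40A1 had 0.103, 0 and 0.117 against 4.08, 3.65 and 4.13 CPM (45.2-fold lower), and the ferrireductase STEAP3 was 1.87-fold lower. For ATF4 targets and the unfolded protein response 26 genes were tested, of which 4 were higher and 8 lower, beside the same shares of all tested genes. The pseudokinase TRIB3 was 4.69-fold and the amino acid transporter SLC7A5 2.26-fold higher, while the stress cytokine GDF15 had 18.5, 18.5 and 18.6 CPM without VHL and 119, 143 and 119 CPM with it (6.86-fold lower, adjusted p = 7.65e-11) and the sensor ATF6 was 2.21-fold lower.

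Of 56 cytosolic ribosomal protein genes 19 were lower and 0 higher (median -0.39), with RPS2, RPL12, RPL37 and RPL4 2.43-fold, 1.99-fold, 1.95-fold and 1.81-fold lower. These genes have many processed copies, and the count depended on single libraries. With total-count scaling 11 were lower and 1 higher, and without replicate 3 of both JQ1 groups 7 were lower. The count was 41 without replicate 1 of the VHL-negative JQ1 group, 10 without its replicate 2 or replicate 3 or replicate 1 of the VHL-positive JQ1 group, and 12 without replicate 3 of the latter. Of 14 tested genes known to respond to BET inhibitors 4 were higher and 3 lower, shares near the 19.7% and 21.2% of all tested genes. The lower count was 0 with total-count scaling or without replicate 3 of both JQ1 groups, and 1 without replicate 2 or replicate 3 of the VHL-negative or replicate 1 or replicate 3 of the VHL-positive JQ1 group. The higher count was 2 without replicate 1 of the VHL-negative or replicate 1 or replicate 3 of the VHL-positive JQ1 group. FOSL1, a component of AP-1, was 3.4-fold higher, and BRD3 was 1.45-fold lower (adjusted p = 0.00634), a call that was lost with total-count scaling (0.115) and without replicate 3 of both JQ1 groups (0.0742).

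Most of the largest differences lay outside the HIF target lists, which hold 75 of the 20714 tested genes. NDUFA4L2, SLC2A3, CA9 and ADM, named below, are on those lists. By size, among genes with a mean of at least 10 CPM over the JQ1 libraries, the 12 largest higher genes were NEXMIF, NDUFA4L2, SLC2A3, CA9, KRT81, FER1L4, SYT13, ADM, NRN1, ADAMTS16, MT1X and LAYN. NEXMIF, a gene of neurite outgrowth on the X chromosome, had 104, 80.9 and 85 CPM in VHL-negative and 0.582, 0.851 and 0.172 CPM in VHL-positive cells (157-fold, SE 0.30 log2, adjusted p = 3.02e-11). The transcribed pseudogene FER1L4 had 154, 345 and 254 against 5.46, 6.24 and 6.94 CPM and the metallothionein MT1X 148, 76 and 103 against 4.58, 5.87 and 3.9 CPM, so both varied more than 1.5-fold among VHL-negative libraries but did not overlap with the VHL-positive ones. The metallothioneins and hair keratins are families of similar genes, which makes the assignment of reads to MT1X and KRT81 uncertain. SYT13, a synaptotagmin, was 35.8-fold, the neuritin NRN1 27.5-fold, the metalloprotease ADAMTS16 25.6-fold and the hyaluronan receptor LAYN 17.7-fold higher.

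The 12 largest lower genes were near 0 without VHL: SLC34A2, NPNT, GDA, DCLK1, FUT9, NLGN1, PRTG, KCNJ15, PPP1R1A, CD9, SULT1A1 and SPX. SLC34A2, a sodium-dependent phosphate transporter, had 0.205, 0.238 and 0.66 CPM in VHL-negative and 283, 386 and 297 CPM in VHL-positive cells (846-fold lower, adjusted p = 4.69e-12), and its log2 difference of -9.72 was -10.50 without replicate 3 of the VHL-negative JQ1 group. The kidney matrix protein nephronectin, NPNT, had 2 counts over the 3 VHL-negative JQ1 libraries and 1758 over the VHL-positive ones, a ratio of 907 (95% counting interval 251 to 7490). Guanine deaminase, GDA, had 3 against 1738 counts, a ratio of 598 (204 to 2900).

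PRTG, a membrane protein of the immunoglobulin superfamily, had 0.103, 0.179 and 0.194 against 72.1, 76.7 and 68.6 CPM (458-fold lower, SE 0.21 log2), and the tetraspanin CD9 had 0.0342, 0.238 and 0.155 against 32.3, 36.9 and 34.7 CPM (264-fold). The fitted folds of the kinase DCLK1, the fucosyltransferase FUT9, the adhesion molecule NLGN1, the potassium channel KCNJ15, the phosphatase inhibitor PPP1R1A, the sulfotransferase SULT1A1 and the peptide hormone SPX ranged from 184-fold (SPX) to 509.6-fold (DCLK1) lower. Folds of this size depend on single reads: without replicate 1 of the VHL-negative JQ1 group the log2 difference of FUT9 moved from -8.87 to -8.17 and that of SULT1A1, which has a near-identical neighbour, from -8.03 to -8.81. NPNT moved further without the same library, from -9.58 to -12.35. GDA moved from -9.06 to -12.35 without replicate 3 of that group and to -8.39 without its replicate 1. Each of the 24 genes was separated between the genotypes under JQ1, and their DMSO libraries did not overlap either.

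**Figure D4:**
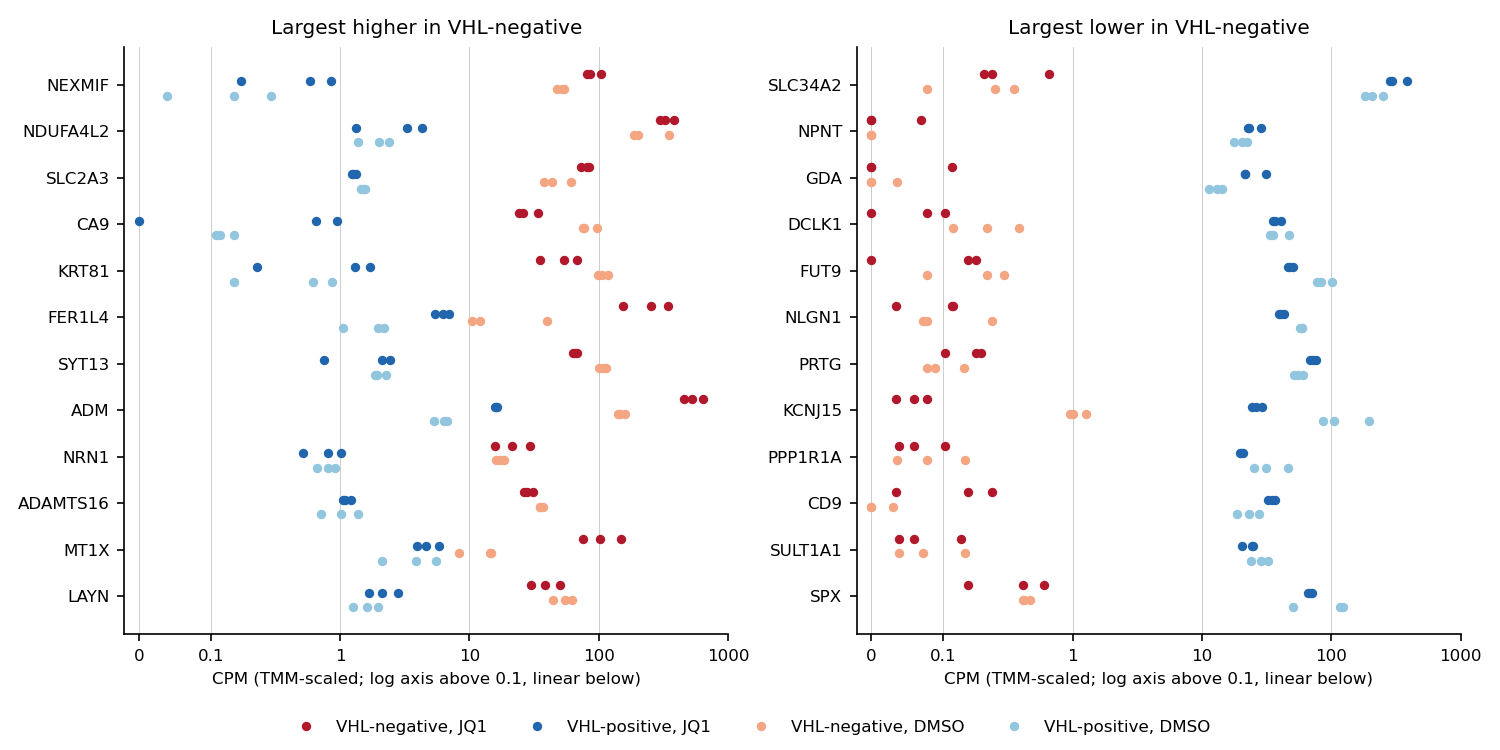
CPM in each of the 12 libraries for the 12 genes with the largest higher (left) and the 12 with the largest lower difference (right) between VHL-negative and VHL-positive cells under JQ1, on an axis that is logarithmic above 0.1 and linear below. Each point is a library; in every row the red VHL-negative and blue VHL-positive JQ1 points do not overlap.

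Without drug, 3058 genes were higher and 3299 lower in VHL-negative than in VHL-positive cells (30.7% of tested genes), from libraries that the JQ1 comparison does not use. Called under both treatments were 4174 genes, 4132 of them in the same direction and 42 in opposite directions. The same-direction calls made up 48.7% of the JQ1 calls and 65% of the DMSO calls. Over all tested genes the log2 differences under JQ1 and DMSO had a Pearson r of 0.779, given as a description across genes that are not independent. Another 4305 genes passed under JQ1 alone, and 79 of these passed the test of the difference between the treatments.

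That test, the interaction of genotype and treatment, called 250 genes (1.21%), with 103 (0.497%) more positive and 147 (0.71%) more negative under JQ1. At an unadjusted p under 0.05 there were 4657. The count depended on single libraries: it was 43 without replicate 3 of the VHL-negative JQ1 group and 3510 without replicate 1 of that group, and from 55 to 345 with any of the other 10 libraries left out. Among the 75 tested HIF targets 2 passed in the positive and 4 in the negative direction. Their median log2 difference was 0.92 under JQ1 and 0.97 under DMSO, and 53 were higher and 5 lower under DMSO.

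HILPDA had a larger genotype difference under JQ1. Its DMSO libraries had 19.8, 25.9 and 19 CPM without VHL and 6.43, 6.45 and 5.96 CPM with it, and the log2 difference was 1.78 under DMSO against 3.79 under JQ1. The change of 2.01 (SE 0.19) passed at an adjusted p of 6.6e-05 and in every alternative run. PFKFB3 had 295, 327 and 275 against 246, 204 and 275 CPM under DMSO, where it did not pass (adjusted p = 0.0954), and its difference was 1.57 more positive under JQ1 (adjusted p = 0.000872). VHL had 24.9, 28.2 and 26.2 against 67.3, 64.6 and 78.9 CPM under DMSO, and its difference changed by -1.29 (adjusted p = 0.00161), a call lost without replicate 3 of both JQ1 groups (0.0694).

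VEGFA was 1.505 more positive under JQ1 (adjusted p = 0.0163), at 157, 173 and 147 against 47, 92.7 and 51.3 CPM under DMSO. The call was lost without replicate 3 of the VHL-negative (0.0598) and without replicate 1, 2 or 3 of the VHL-positive JQ1 group (0.0545, 0.0645 and 0.0586). CA9 and EDN1 went the other way. CA9 had 97.8, 75.8 and 77 CPM without VHL under DMSO, against 34.2, 24.1 and 26.1 under JQ1. With VHL it was under 1 CPM in every library of both treatments. Its log2 difference was 9.30 under DMSO and 5.57 under JQ1, and both depend on these low levels. The call for its change of -3.73 (adjusted p = 0.0179) was lost without replicate 3 of the VHL-negative JQ1 group (0.055). It was also lost without replicate 1 (-3.09 on the log2 scale, 0.137) or 2 (0.068) of the VHL-positive JQ1 group, and with limma-voom (-2.72 on the log2 scale, 0.165). EDN1 had 61.6, 43.2 and 53.6 against 1.28, 3.19 and 2.83 CPM under DMSO, a difference of 4.44, and changed by -3.16 (SE 0.43, adjusted p = 0.00178), which remained in every alternative run.

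CP was higher without VHL under DMSO (85.3, 75.1 and 82 against 42.4, 55.4 and 50.3 CPM) and lower under JQ1, a change of -1.67 (adjusted p = 0.00133). NDRG1, a stress-responsive gene, was 2.64 under DMSO and 1.19 under JQ1. Its change of -1.45 (adjusted p = 0.0202) was lost without replicate 3 of the VHL-negative (0.0724) and without replicate 1, 2 or 3 of the VHL-positive JQ1 group (0.0665, 0.0557 and 0.0536).

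Among all genes named by the size of this change, filaggrin, FLG, an epidermal protein, had 80.2, 67.9 and 59.1 against 70.9, 67.7 and 72.4 CPM under DMSO, overlapping, and 60.7, 74.1 and 60.2 against 7.28, 9.68 and 7.63 CPM under JQ1, a change of 3.01 (adjusted p = 1.12e-06). The laminin LAMA1 was at 7.13, 8.4 and 6.99 against 83.4, 91.1 and 100.2 CPM under DMSO and 0.854, 1.31 and 0.932 against 139, 169.5 and 147 CPM under JQ1, a change of -3.63 (adjusted p = 3.66e-07). GDF15 did not differ past the threshold under DMSO (190.1, 178 and 175 against 181, 191 and 176 CPM, adjusted p = 0.945) and changed by -2.76 (adjusted p = 3.44e-07). The calls for FLG, LAMA1 and GDF15 remained in every alternative run.

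The actin-binding CALD1 changed by -1.74 and the secreted neuropeptide precursor VGF by 2.13 (adjusted p = 0.000338 and 0.000338). VGF was not higher without VHL under JQ1, where it did not pass (log2 -0.36, adjusted p = 0.0863). It passed as lower there without replicate 2 of the VHL-positive JQ1 group (log2 -0.52, 0.0259). MT1X changed by 2.79 (adjusted p = 0.00597), a call lost without replicate 3 of both JQ1 groups (0.0734). Monoamine oxidase MAOA changed by -3.43 (adjusted p = 0.015), which was -2.83 without replicate 2 of the VHL-positive JQ1 group and no longer passed (0.116). PLAC4 changed by 2.19 (adjusted p = 0.0162), lost without replicate 3 of the VHL-negative (0.0559) and replicate 1 (0.0658) or 3 (0.051) of the VHL-positive JQ1 group. The transcription factor NFIC changed by 2.03 (adjusted p = 0.0489), a call lost when any 1 of 11 of the 12 libraries was left out. Under JQ1, PLAC4 had 5.81, 18.2 and 12.7 CPM and NFIC 5.16, 20.2 and 13.9 CPM in the VHL-negative libraries, lowest in replicate 1 and highest in replicate 2 like NEAT1 and MALAT1, whose part was not tested.

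For the other lists, genes that passed the test of the difference were few. Of cholesterol genes 2 passed in the negative direction, of replication genes 2 in the positive, and of oxidative phosphorylation, ribosomal protein, MHC class I and interferon genes 0 with edgeR. At an unadjusted p under 0.05 the difference was more negative under JQ1 for 15 of 44 oxidative phosphorylation, 33 of 56 ribosomal protein and 8 of 16 MHC class I genes, and more positive for 13 of 36 interferon genes and more negative for 2. At that cut 4657 of all 20714 tested genes passed in either direction, a count not split by direction here. With DESeq2 1, 6, 4 and 1 of these lists' genes passed in the negative direction and 2 interferon genes in the positive, and with limma-voom 1 interferon gene passed in the positive direction and 0 of the others in either. Over all genes DESeq2 called 407 in the positive and 906 in the negative direction, and limma-voom 73 and 125. The medians are given side by side without a test: under JQ1 and DMSO they were -1.12 and -0.43 for cholesterol genes, -0.63 and -0.26 for oxidative phosphorylation, 0.72 and 0.30 for replication, -1.20 and -0.78 for MHC class I, -0.59 and -0.99 for interferon-stimulated genes and -0.39 and 0.21 for ribosomal proteins. MMP14 changed by -1.31 (adjusted p = 0.00152). LPIN1 changed by -1.04 (adjusted p = 0.00911), lost without replicate 3 of the VHL-negative JQ1 group (0.0517). CDKN1A changed by -0.95 (adjusted p = 0.022), a call lost when any 1 of 6 of the 12 libraries was left out.

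**Figure D5:**
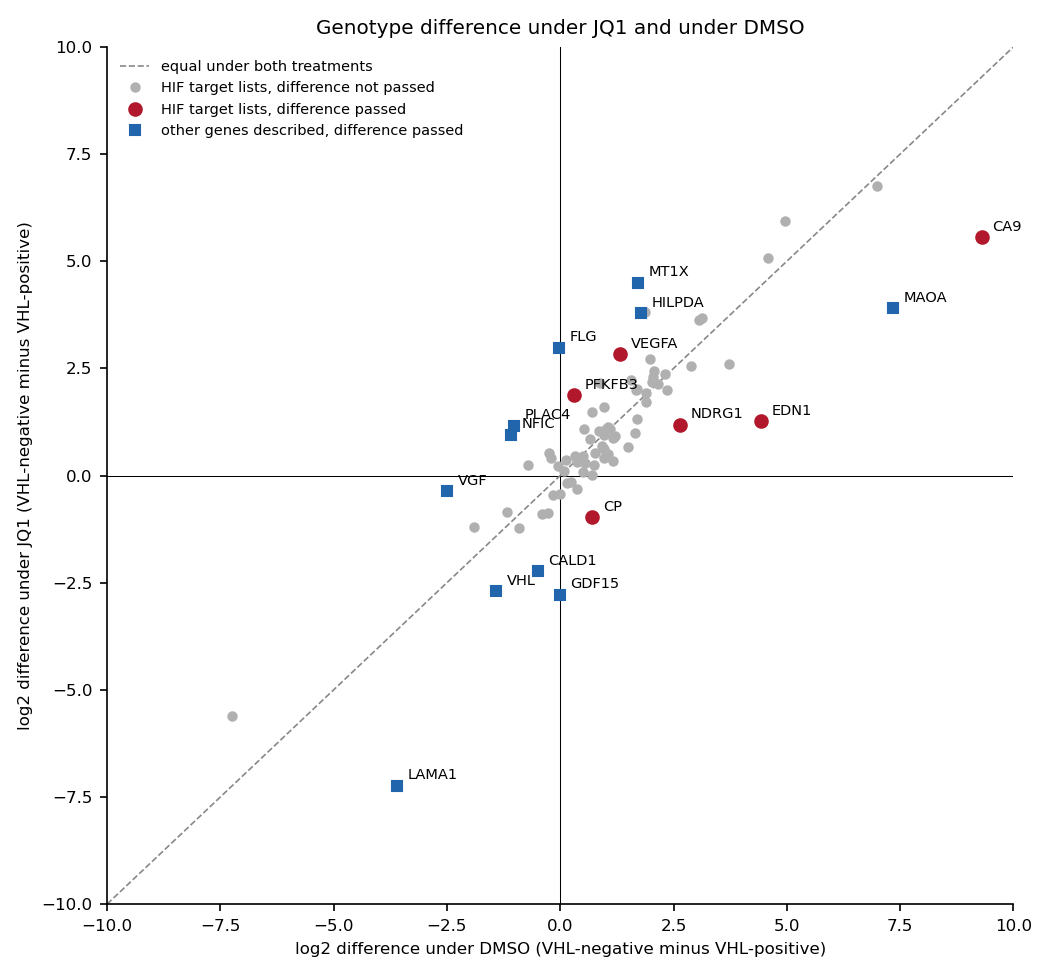
The log2 difference between VHL-negative and VHL-positive cells under JQ1 (vertical axis) against the same under DMSO (horizontal axis), with a dashed line where both are equal. Grey points are HIF targets, red points the 6 HIF targets and blue squares other described genes that passed the test of the difference between the treatments; most HIF targets lie near the line, HILPDA, VEGFA and PFKFB3 above it and CA9, EDN1, NDRG1 and CP below it.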

How the data were processed

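The authors deposited raw counts of reads per gene for 12 libraries, and these counts were used as deposited. Per the submitters' processing notes, STAR 2.7.8, Subread 2.0.3, featureCounts and DESeq2 1.30.1 were used on build GRCh38; the sources used here do not give the strand setting of the counting, so reads of overlapping and antisense genes cannot be told apart. The authors' deposited comparisons of JQ1 with DMSO were not used here. Gene positions, types and exons came from GENCODE 29, gene symbols from a separate reference of gene names, and promoter sequences from RefSeq on GRCh38.p14.

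Genes were filtered by group (filterByExpr), libraries scaled by TMM, and genotype differences under JQ1 and DMSO and their difference fitted over all 4 groups with edgeR 4.0.16 (R 4.3.3), with an adjusted p of 0.05 as the threshold. CPM are counts scaled to 1000000 on TMM-scaled totals. Intervals of count ratios are exact at 95% and cover counting error only.

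The genes named were the 12 largest per direction with a mean of at least 10 CPM, the 6 largest per direction for the difference between treatments, up to 4 per gene list by smallest p (any member of the HIF and lipid droplet lists), 10 set by name (VHL, MYC, HILPDA, HIF1A, EPAS1, CA9, NDUFA4L2, EGLN3, VEGFA and CCND1), and some further list members and exceptions chosen after their values were seen. Some genes the rule names are not reported here. The 31 gene lists and 4 marker lists and the genes were chosen with earlier results of these data known. Alternatives were another scaling, other filters, DESeq2 1.42.0, limma-voom (limma 3.58.1), the replicate number as a block, subsets of genes or libraries, a stricter threshold, and leaving out each library in turn.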

Additional observations from a re-analysis of the deposited data

Results flagged for a closer look

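The genotype difference under JQ1 was set against the genotype difference under DMSO by a test of the interaction, and 250 genes passed at an adjusted p of 0.05 (edgeR's quasi-likelihood test). The values below are the log2 difference under JQ1 minus that under DMSO.

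More positive under JQ1 were FLG (3.01), MT1X (2.79), PLAC4 (2.19), VGF (2.13), NFIC (2.03), HILPDA (2.01), PFKFB3 (1.57) and VEGFA (1.505). More negative under JQ1 were CA9 (-3.73), LAMA1 (-3.63), MAOA (-3.43), EDN1 (-3.16), GDF15 (-2.76), CALD1 (-1.74), CP (-1.67), NDRG1 (-1.45), MMP14 (-1.31), VHL (-1.29), LPIN1 (-1.04) and CDKN1A (-0.95). CP, PLAC4 and NFIC passed in opposite directions under JQ1 and DMSO. VGF did not pass under JQ1 (log2 -0.36, adjusted p = 0.0863). The NFIC call under JQ1 was lost without replicate 2 (0.244) or 3 (0.0991) of the VHL-negative and without replicate 1, 2 or 3 (0.141, 0.0507 and 0.0772) of the VHL-positive JQ1 group. Its call for the difference (adjusted p = 0.0489) was lost with limma-voom (0.084), with the filter of 1 CPM (0.0515) and without any 1 library (0.0512 to 0.144) other than replicate 1 of the VHL-negative JQ1 group. Without 1 library the calls for the difference were also lost for MAOA (0.116 without replicate 2 of the VHL-positive JQ1 group), LPIN1 (0.0517 without replicate 3 of the VHL-negative JQ1 group) and PLAC4 (0.0559 without that library, and 0.0658 and 0.051 without replicate 1 and replicate 3 of the VHL-positive JQ1 group). The call for CDKN1A was lost without replicate 1 of the VHL-negative DMSO group (0.0507), replicate 2 or 3 of the VHL-negative JQ1 group (0.0501 and 0.0995) or replicate 1, 2 or 3 of the VHL-positive JQ1 group (0.0743, 0.0771 and 0.0668). Groups of 3 libraries were not searched for single libraries apart from the rest.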

How the results depend on the processing

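The counts of genes called over all tested genes kept within 1.5 times of the values above except as follows. For the difference between the treatments, total-count scaling gave 87 genes more negative under JQ1, no filter gave 1336 called (672 more positive, 664 more negative) and DESeq2 gave 1313 (407 and 906). Without replicate 3 of both JQ1 groups the JQ1 comparison called 4814 (2191 higher, 2623 lower) and the difference 25 (9 and 16). At an adjusted p under 0.01 the JQ1 comparison called 5483 (2447 higher), the DMSO comparison 4137 (1922 higher) and the difference 47 (17 and 30). Leaving out 1 library gave 6395 to 9644 calls under JQ1 (2915 to 4541 higher, 3325 to 5103 lower), 5008 to 7124 under DMSO (2283 to 3483 higher, 2713 to 3641 lower) and 43 to 3510 for the difference (17 to 1301 more positive, 26 to 2209 more negative). The cause of these shifts was not tested, apart from the fewer libraries in the fits that leave some out.

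The counts of members called under JQ1 moved more. Of 62 counts (higher and lower in 31 lists) 0 moved by over 1.5 times with median-of-ratios size factors, the filter of 1 CPM, limma-voom, the block, or mitochondrial and structural RNA genes removed. With DESeq2 2 moved (1 higher for fatty acid uptake and for NRF2), with no filter 3 (1 higher for CDK inhibitors and for NRF2, 2 for ATF4), and with the JQ1 libraries alone 3 (4 higher for acid export, 2 higher and 8 lower for fatty acid synthesis). With protein-coding genes only 7 moved: 4 higher for HIF subunits and for lipolysis, 2 for lipid droplets and for fatty acid synthesis, 1 for ribosomal proteins, and 1 lower for collagen hydroxylases and 3 for mitosis. With total counts 11 moved: those for HIF-2 growth genes, BET responders, collagen hydroxylases, lipid droplets and ribosomal proteins given above, and 4 higher for HIF subunits and for CDK inhibitors, 2 for fatty acid synthesis, and 2 lower for mitosis and 5 for ATF4. Without replicate 3 of both JQ1 groups 22 moved: those for collagen hydroxylases, BET responders and ribosomal proteins given above; 2 higher and 3 lower for MYC, 6 and 1 for mitosis and 2 and 2 for ATF4; 4 higher for NF-kB, 3 for matrix, and 1 for lysosomes, fatty acid oxidation, fatty acid uptake, triglyceride synthesis, CDK inhibitors, interferon, NRF2 and iron; and 4 lower for HIF-2 growth genes and 3 for fatty acid synthesis. At an adjusted p under 0.01 15 moved.

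Without 1 library, beside the counts given above, the higher count was 1 for triglyceride synthesis (without replicate 1 or 3 of the VHL-negative or 2 or 3 of the VHL-positive JQ1 group), fatty acid uptake (replicate 3 of the VHL-negative, 1 or 3 of the VHL-positive JQ1 group or 2 of the VHL-negative DMSO group), CDK inhibitors (replicate 3 of the VHL-positive JQ1 group), interferon (replicate 1 of the VHL-negative or 3 of the VHL-positive JQ1 group) and NRF2 (replicate 2 or 3 of the VHL-negative or 1 or 3 of the VHL-positive JQ1 group). It was 2 for ATF4 (replicate 1 or 3 of the VHL-positive JQ1 group), lipid droplets (replicate 1 of the VHL-negative JQ1 group) and fatty acid synthesis (replicate 1 of the VHL-negative DMSO group), and 4 for acid export (replicate 2 of the VHL-positive DMSO group), which had 2 lower without replicate 1 of the VHL-negative JQ1 group.

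With the replicate number as a block 8406 genes were called under JQ1, 6191 under DMSO and 272 for the difference. Same-numbered JQ1 libraries had correlated deviations of 0.243, 0.165 and 0.012, and differently numbered ones -0.227 to 0.063. Between DMSO and JQ1 the same-numbered values were 0.274, 0.335 and 0.009 in VHL-negative and 0.014, -0.038 and 0.018 in VHL-positive cells. The labels do not say what a number shares, so the main fit did not pair the libraries. These values do not settle whether they were paired. Among the named genes the block ended 1 call, that of NFIC for the difference (adjusted p = 0.0529).

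Genes that did not pass could change sign. PLIN2 (0.01 as reported) was -0.021 with no filter, -0.015 with DESeq2, -0.030 with limma-voom, -0.017 with the block, -0.011 without replicate 3 of both JQ1 groups, and -0.245 to 0.193 without 1 library. MYC was 0.141 with total-count scaling, 0.037 with the filter of 1 CPM, 0.101 with protein-coding genes only, and -0.165 to 0.119 without 1 library. Depth limits genes near 0 counts, whose folds move with single reads.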
